A study of Mus musculus with 46 samples.

Results

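Macrophages grown from mouse bone marrow were exposed to either end of the range of liver X receptor (LXR) activity: GW3965, a synthetic agonist, and GSK2033, a synthetic antagonist. The 10 libraries compared were chosen by their labels as single-compound treatments, 5 with GW3965 and 5 with GSK2033, out of 46 libraries in 9 groups of the same experiment, and the whole transcriptome was read in each. Another 6 libraries that received Vehicle show where each gene stood without an added compound. No label names an allele, and dose, exposure time, strain, age and sex are not used here. Whether replicate libraries stem from different animals, different dishes or 1 dish is not stated, so every p-value measures the spread between these libraries, which may be technical.

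LXRα (gene Nr1h3) and LXRβ (Nr1h2) are nuclear receptors that bind DNA together with the retinoid X receptor (RXR) and are switched on by oxysterols, which report a cell's load of cholesterol. In macrophages an agonist drives genes that export cholesterol, above all Abca1 and Abcg1, and, through the transcription factor SREBP-1c (Srebf1), genes that make and desaturate fatty acids. Ligand-bound LXR is also known for holding down inflammatory genes in these cells. An antagonist occupies the same pocket and lowers the activity that oxysterols made by the cell maintain.

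The libraries held 19354093 to 28451168 estimated counts with GW3965, 19895062 to 25282583 with GSK2033 and 19935444 to 26037620 with Vehicle. Levels are given in CPM, a gene's count relative to its library's total after TMM scaling, and compare a gene with itself across libraries, not with other genes. Differences are log2 fold changes, GW3965 minus GSK2033 unless another pair is named, with the standard error (SE), and were tested in 13838 genes with edgeR's quasi-likelihood test, p-values being adjusted by Benjamini-Hochberg. A gene is called where its adjusted p was under 0.05. On the first principal component of the 1000 most variable genes, which held 47.3% of their variance, the GW3965 libraries lay from 36.3 to 38.1, the Vehicle libraries from -12.8 to -9.96 and the GSK2033 libraries from -25.4 to -22.5. Of the 14 macrophage markers all were tested, and defining ones such as Csf1r (2279.6 CPM with GW3965 and 2306 with GSK2033) and Lyz2 (5021 and 7074) were abundant in both groups. Csf1r and Lyz2 were higher with Vehicle, at medians of 2925 and 10320 CPM. Markers of stromal cells were present too: 11 of them summed to 3252 to 3890.1 CPM with GW3965, 3725 to 4539 with GSK2033 and 4301 to 5069.5 with Vehicle, most of it collagen, and 7 of 10 tested were called lower with GW3965 and 2 higher. Over all genes tested, 22.6% were called lower and 23.8% higher. No erythroid marker passed the filter on low counts. In bulk RNA, fewer cells of a type and less RNA per cell cannot be told apart, and the part of these other cells in the results was not tested.

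Between agonist and antagonist, 3297 genes were called higher with GW3965 (23.8% of those tested) and 3134 lower (22.6%), so 46.5% of the genes tested differed. Most differences were small, with a median absolute log2 difference of 0.36 among called genes. Large differences lay more often on the lower side: 325 genes (2.35%) were at least 2-fold higher and 655 (4.73%) at least 2-fold lower, and at 8-fold the counts were 23 and 121. In 34.3% of genes the 5 GW3965 libraries and the 5 GSK2033 libraries did not overlap (17.6% higher and 16.7% lower with GW3965). Counts of members in the gene lists below are to be read beside these shares. The median over all genes tested was 0.00.

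**Figure D1:**
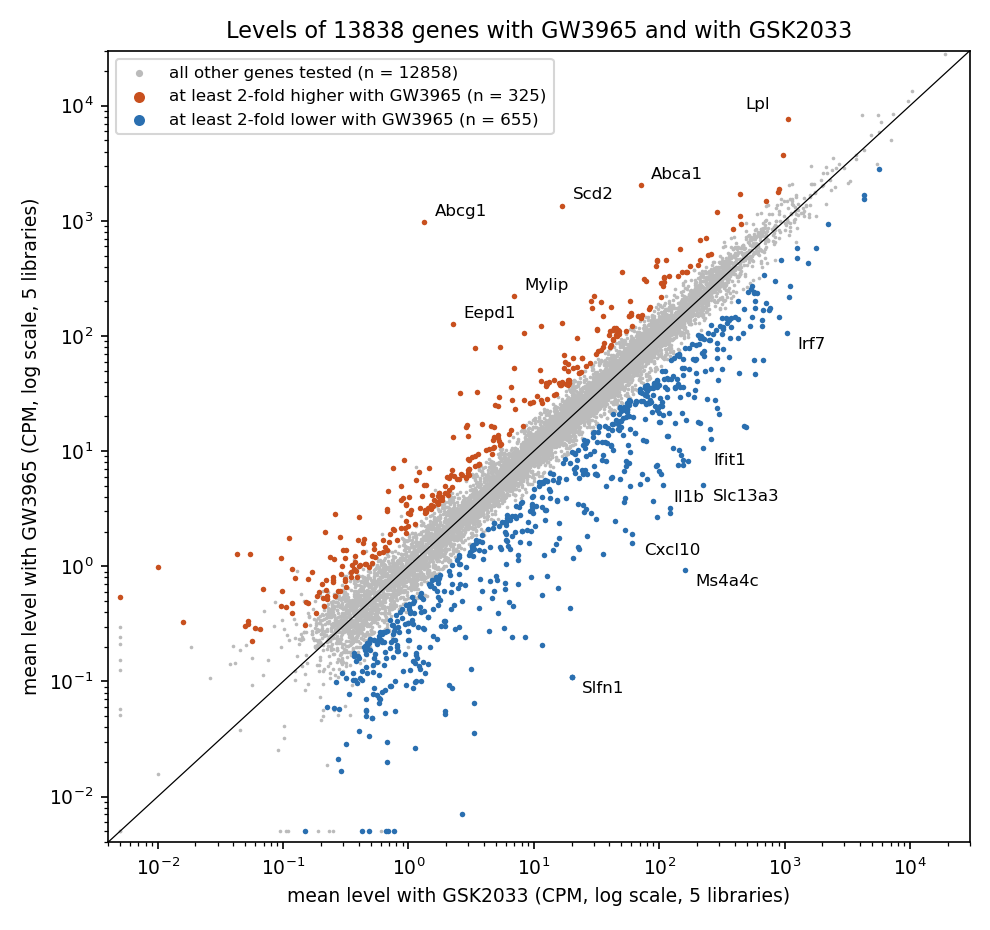
Each point is 1 of 13838 genes, plotted by its mean CPM over 5 GSK2033 libraries (x axis, log scale) and 5 GW3965 libraries (y axis, log scale), with means under 0.005 drawn at 0.005 and the line marking equal levels. The 325 genes called at least 2-fold higher with GW3965 are orange and the 655 called at least 2-fold lower are blue. Abcg1, Slfn1 and Ms4a4c stand farthest from the line among the genes labelled.

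Vehicle showed how each end of this range was filled. Against Vehicle, GW3965 raised 3201 genes (23.1%) and lowered 2922 (21.1%), of which 213 (1.54%) and 554 (4%) by at least 2-fold. GSK2033 raised 2542 (18.4%) and lowered 2483 (17.9%), of which 120 (0.867%) and 128 (0.925%) by at least 2-fold. These comparisons share the Vehicle libraries, so they are given side by side only. A single contrast that sets the log2 midpoint of both compounds against Vehicle shows where the untreated level lay: the midpoint was called above Vehicle in 2631 genes (19%) and below it in 2753 (19.9%), by at least 2-fold in 52 (0.376%) and 198 (1.43%). Among the 325 genes at least 2-fold higher with GW3965, the midpoint lay above Vehicle in 131, below it in 45 and was not called in 149. Among the 655 at least 2-fold lower, it lay below Vehicle in 439, above it in 26 and was not called in 190. For most of the strongly lower genes, then, the Vehicle level lay on the antagonist's side of the midpoint.

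The gene with the largest log2 difference between the compounds, of the 13838 tested, was the cholesterol exporter Abcg1. Of 10 tested genes for cholesterol export and lipoproteins, 9 were higher with GW3965 and 1 was lower, with a median of 1.76. Abcg1, which hands cholesterol to HDL particles (ENSMUSG00000024030, GRCm38 chr17:31057675-31117988), stood at 928, 968, 945, 1015 and 1027 CPM in the GW3965 libraries and at 1.66, 1.07, 1.49, 1.18 and 1.31 CPM in the GSK2033 libraries. Vehicle libraries ran from 35.1 to 52.8 (median 38.4), so the 3 groups did not overlap and Vehicle lay near the middle of the log range. The log2 difference was 9.5 (SE 0.11, adjusted p = 3.2e-44), a 727-fold change, made of 4.57 with GW3965 and -4.94 with GSK2033 against Vehicle.

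Abca1, the transporter that loads cholesterol onto apolipoprotein A-I (chr4:53030787-53159895), measured 1869.5, 1981, 1905, 2284 and 2144 CPM with GW3965 and 71.03, 80.6, 63.1, 79.6 and 61.99 CPM with GSK2033. Vehicle lay from 345 to 429 (median 397), again clear of both groups. The difference was 4.83 (SE 0.08, adjusted p = 1.2e-39), and the midpoint differed from Vehicle by -0.05 (adjusted p = 0.54), which was not called: agonist and antagonist moved Abca1 by like amounts on the log scale. Lpl, the lipase that frees fatty acids from lipoproteins, was among the 6 most abundant genes called at least 2-fold apart, with 7528 to 7981 CPM against 956 to 1156, and its difference was 2.86 (SE 0.05, adjusted p = 2.5e-38). Pltp, which transfers phospholipids between lipoproteins, followed with 2.04 (SE 0.04). Apoe, the lipoprotein that macrophages secrete, differed by 0.99 (SE 0.06, adjusted p = 4.1e-19). The exception was Npc2, a carrier of cholesterol inside the lysosome, at -0.63 (SE 0.03, adjusted p = 8.1e-22), while its partner Npc1 was at 0.34 (SE 0.02).

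All 10 tested regulators and enzymes known as LXR targets were higher with GW3965 (median 2.24), and in each of them the 5 libraries of the groups did not overlap. Over all genes tested, 23.8% were called higher, and 17.6% were higher without overlap. Mylip, a ubiquitin ligase that limits lipoprotein uptake, stood at 217, 222, 223, 227 and 222 CPM with GW3965 and 7.07, 6.59, 6.55, 7.77 and 6.58 CPM with GSK2033, with Vehicle from 32.6 to 37.2 (median 35.8). Its difference was 5.01 (SE 0.05, adjusted p = 1.7e-50). Eepd1, a membrane-linked protein that supports cholesterol export, reached 125 to 128 CPM against 2.06 to 2.5 CPM, a difference of 5.8 (SE 0.06, adjusted p = 9.1e-47). Lpcat3, which builds polyunsaturated chains into phospholipids, and Arl4c, a small GTPase, differed by 2.81 (SE 0.04) and 2.26 (SE 0.02).

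Srebf1, which encodes SREBP-1, was held apart from the transporters by its Vehicle level. It measured 360.3, 357, 355, 368 and 375 CPM with GW3965, 49.3, 49.8, 50.02, 51.9 and 51.04 CPM with GSK2033 and from 65.8 to 74.6 (median 70.03) CPM with Vehicle. The groups did not overlap, but Vehicle lay close to the antagonist: 2.38 with GW3965 and -0.47 with GSK2033 against Vehicle, and the midpoint was above Vehicle by 0.96 (SE 0.04, adjusted p = 2.7e-23). Counts per gene do not separate the SREBP-1a and SREBP-1c transcripts. The midpoint was above Vehicle for 7 of the 10 genes in this list and below it for 2, against 19% and 19.9% of all genes tested.

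**Figure D2:**
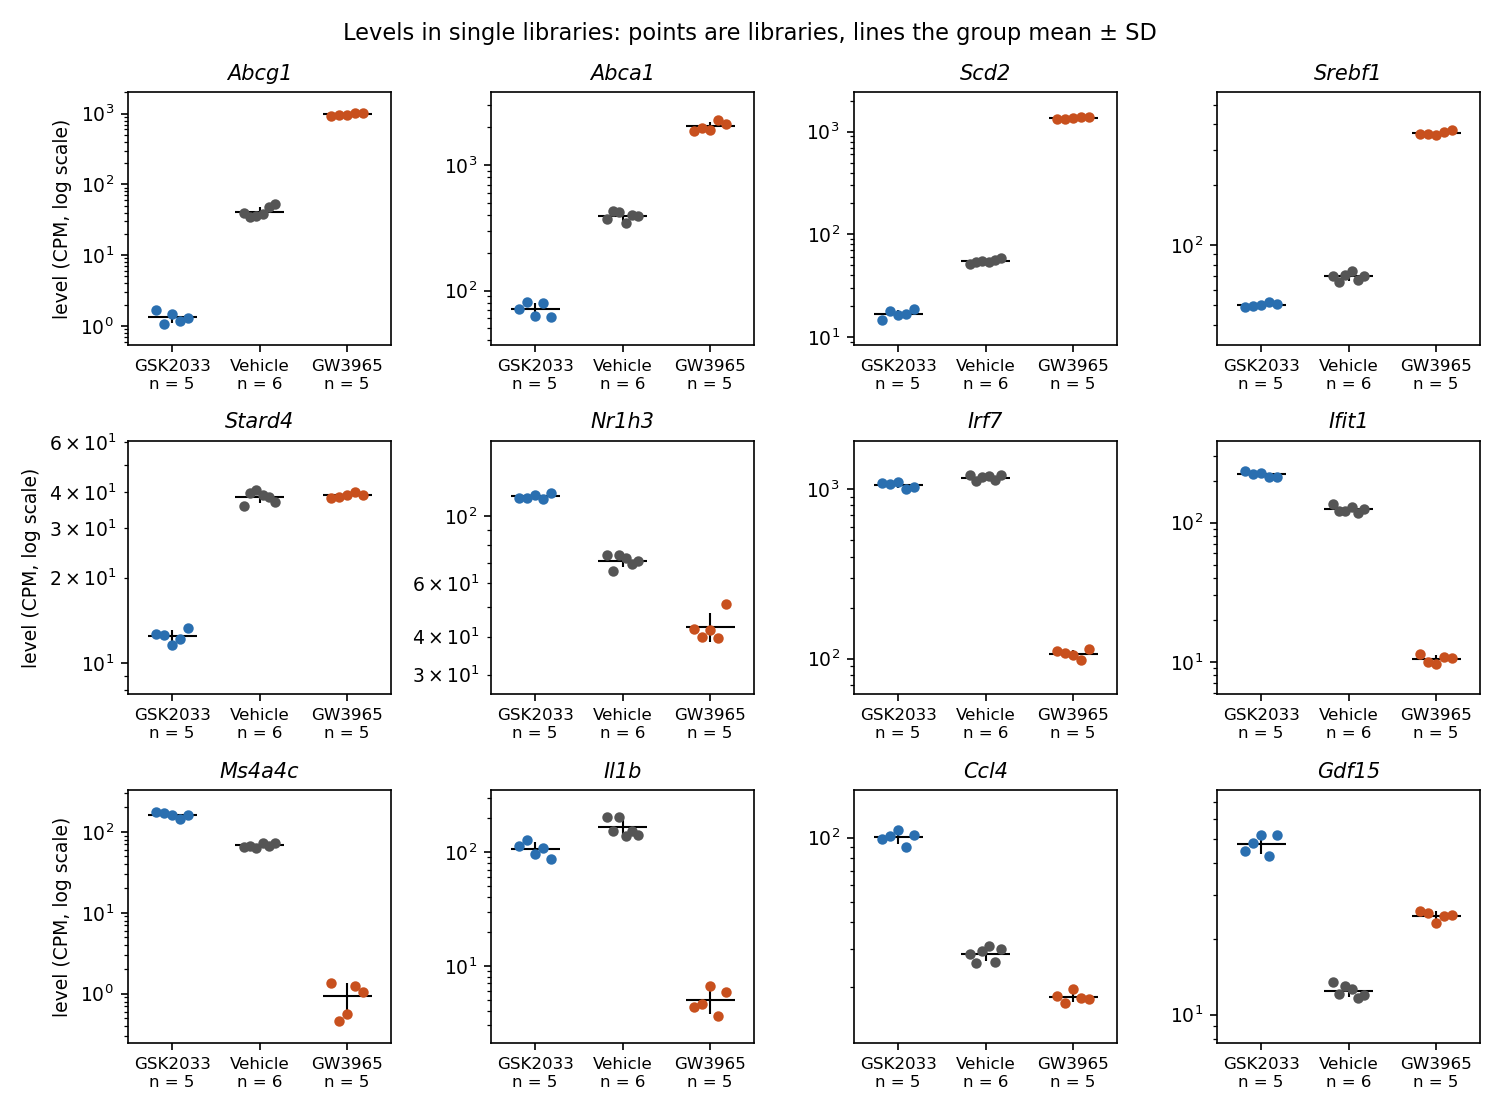
Levels of 12 genes in single libraries (CPM, log axis, its range set for each gene), with 5 GSK2033, 6 Vehicle and 5 GW3965 libraries as points and the group mean ± SD as lines. Abcg1 and Abca1 have Vehicle between the compounds, Stard4 has Vehicle beside GW3965, Irf7 has Vehicle beside GSK2033, and Gdf15 has both compounds above Vehicle.

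The receptors themselves differed less. Nr1h3 (LXRα) was lower with the agonist, at 42.5, 40.05, 42.2, 39.6 and 51.1 CPM, than with the antagonist, at 115, 115, 117, 114 and 119 CPM, and Vehicle lay between them, from 65.8 to 74.6 (median 71.9). The difference was -1.43 (SE 0.06, adjusted p = 8.0e-24), with -0.73 for GW3965 and 0.70 for GSK2033 against Vehicle. Nr1h2 (LXRβ) overlapped between the groups, with 79.1 to 85.4 CPM against 80.2 to 93.9 CPM, and its difference of -0.10 (SE 0.04, adjusted p = 0.031) was no longer called without GW3965 library 3 or 4 or GSK2033 library 1 or 4 (adjusted p 0.053 to 0.078), in a fit to the 10 libraries alone (adjusted p = 0.058) or in that fit with the replicate block (adjusted p = 0.085). Rxra, the main RXR of macrophages, was not called, with a 95% interval of -0.05 to 0.06 on the log2 scale. Rxrb differed by 0.10 (SE 0.04, adjusted p = 0.014), a call that was lost without GW3965 library 1 or 2 or GSK2033 library 2 or 4 (adjusted p 0.06 to 0.074), with library size as the scaling (adjusted p = 0.061), without the filter on low counts (adjusted p = 0.057) or with the replicate block (adjusted p = 0.053). Ncoa3, a coactivator, was called higher with GW3965 (0.36, SE 0.06). Over the 10 receptor and cofactor genes tested, 3 were higher, 2 lower and 5 not called, a share of called genes close to the 46.5% over all genes tested.

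Genes that make and desaturate fatty acids were higher with GW3965 in 13 of 16 cases and lower in 0, with a median of 1.25. Scd2, a desaturase that makes monounsaturated fatty acids (chr19:44293674-44306864), showed the largest difference of the list, with 1316, 1323, 1367, 1385 and 1378 CPM with GW3965 and 14.7, 17.8, 16.5, 16.9 and 18.5 CPM with GSK2033. Its Vehicle libraries lay from 51.5 to 58.9 (median 54.3), nearer to the antagonist than to the agonist. The difference was 6.33 (SE 0.05, adjusted p = 5.4e-52), of which 4.63 lay above and -1.7 below Vehicle. Scd1 (4.55, SE 0.09), Fads2, the delta-6 desaturase (3.2, SE 0.11), Mid1ip1, an activator of acetyl-CoA carboxylase (2.94, SE 0.06), and Elovl5, an elongase (1.39, SE 0.03), were called in the same direction. So was Fasn, fatty acid synthase, at 2.87 (SE 0.11). The midpoint lay above Vehicle in 9 of the 16 genes and below it in 2, against 19% and 19.9% of all genes tested.

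Cholesterol synthesis and uptake gave another picture. Here 22 of 26 genes were higher with GW3965 and 0 lower (median 0.85), but the list's median against Vehicle was 0.03 for GW3965 and -0.81 for GSK2033. The midpoint was below Vehicle in 20 genes and above it in 0, against 19.9% and 19% of all genes tested. The distance between the compounds was thus made mainly by lower levels with the antagonist.

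Stard4, a carrier of cholesterol between membranes, measured 38.1, 38.5, 39.1, 40.2 and 39.2 CPM with GW3965 and 12.6, 12.6, 11.6, 12.1 and 13.3 CPM with GSK2033, with Vehicle from 35.8 to 40.7 (median 38.9). The GSK2033 libraries lay below all others, whereas GW3965 and Vehicle overlapped. The difference was 1.65 (SE 0.06, adjusted p = 5.6e-28), made of 0.02 with GW3965 (adjusted p = 0.77) and -1.63 with GSK2033 (adjusted p = 2.6e-27).

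Idi1, an enzyme of the isoprenoid steps, lay below Vehicle with both compounds. It measured 37.9, 37.2, 41.04, 35.5 and 33.1 CPM with GW3965, 12.8, 11.9, 12.6, 13.5 and 12.01 CPM with GSK2033 and from 51.5 to 60.8 (median 56.3) CPM with Vehicle, so the 3 groups were separate with Vehicle on top. Its differences from Vehicle were -0.61 (SE 0.05, adjusted p = 2.1e-14) for the agonist and -2.16 (SE 0.05, adjusted p = 5.6e-32) for the antagonist. Hmgcs1, the enzyme ahead of HMG-CoA reductase, had the same order, at -0.44 and -1.01 against Vehicle (adjusted p = 5.3e-14 and 1.3e-25). Insig1, which holds SREBP proteins in the endoplasmic reticulum, stood on either side of Vehicle, at 0.70 with GW3965 (adjusted p = 5.2e-23) and -1.15 with GSK2033 (adjusted p = 2.9e-29). In the window upstream of Hmgcs1, the core of a sterol regulatory element, TCACNCCAC, was found on the printed strand; it is shown in capitals in RefSeq's sequence (GRCm38.p6, chr13:119690182-119690254, plus strand), and its first base lies 137 bases before the transcription start.
Hmgcs1: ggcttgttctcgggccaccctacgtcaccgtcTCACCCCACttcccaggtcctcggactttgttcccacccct
This was 1 of 25 promoter windows of the list's genes (4%), beside 1.06% of 13153 windows of all genes tested. The direct repeat that LXR and RXR bind as a pair was searched as AGGTCA, any 4 bases and AGGTCA again. Both strands were read, with up to 2 mismatches in the fixed letters. It was in 0 of 17 windows of the export genes and LXR targets and in 2.21% of all windows. Of these 20 genes, 13 had a window. The 0 says only that these letters are not within those windows of 250 bases before to 50 after the start. The same search matched 3 of 30 windows (10%) of the interferon-response genes described below. It also matched 2 of 39 windows (5.13%) of the 50 genes with the lowest log2 difference, and these sets share genes.

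Genes of sterol storage and oxysterol metabolism split, with 6 higher, 6 lower and 1 not called of 13, beside 23.8% higher and 22.6% lower over all genes tested. Lipa, the lysosomal acid lipase, was higher (0.89, SE 0.03), as was Osbpl8, an oxysterol-binding protein (0.39, SE 0.04). Stard3 (-0.74, SE 0.03) and Ch25h, which makes 25-hydroxycholesterol (-2.66, SE 0.19), were lower. Ch25h was low throughout, with 0.462 to 0.942 CPM with GW3965 and 3.62 to 4.12 with GSK2033, and the groups did not overlap.

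Other genes at the top of the range were not on these lists. Cd38, an enzyme that consumes NAD, was at 79.95 CPM with GW3965, 5.39 with GSK2033 and 20.3 with Vehicle (3.88, SE 0.13, adjusted p = 1.9e-27). Abi3, part of an actin-regulating complex, differed by 3.69 (SE 0.07), Abcb4, a phospholipid transporter, by 3.65 (SE 0.08), and Gngt2, a G protein subunit, by 3.42 (SE 0.07). Atg9b, an autophagy gene, differed by 3.43 (SE 0.41) at a low level of 2.87 CPM with GW3965.

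Interferon-response genes made the broadest one-way difference of the lists. All 32 tested were lower with GW3965 than with GSK2033, at a median of -2.4. Their median against Vehicle was -2.08 with GW3965 and 0.38 with GSK2033. With GSK2033, 29 of the 32 were called above Vehicle, 1 below and 2 not called, against 18.4% above and 17.9% below over all genes tested. The midpoint lay below Vehicle in 32 of 32, against 19.9% of all genes tested. Summed over the list, levels ran from 1388 to 1496 CPM with GW3965, 8292 to 8813 with GSK2033 and 6585 to 7177.5 with Vehicle.

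Many of these genes carry near their start the interferon-stimulated response element, the site of STAT and IRF proteins. Its core, GAAA, any 2 bases and GAAA again, on either strand without mismatch, was found in 14 of 30 promoter windows of the list (46.7%), in 15 of 39 windows (38.5%) of the 50 genes with the lowest log2 difference and in 0 of 44 windows of the 50 with the highest, beside 3.33% of 13153 windows of all genes tested. The 50 lowest genes include members of the interferon list, so those shares are not separate. A match is a description of letters, not a site shown to be bound. Promoters of 5 such genes follow in RefSeq's sequence (GRCm38.p6), each read 5′ to 3′ on its gene's strand, with the matches in capitals and the remaining letters as flanks. They come from chr4:156200843-156200916 (minus strand), chr19:34640772-34640845 (plus), chr12:26456531-26456604 (minus), chr5:120777693-120777766 (minus) and chr5:92349061-92349134 (minus), in the order given.
Isg15: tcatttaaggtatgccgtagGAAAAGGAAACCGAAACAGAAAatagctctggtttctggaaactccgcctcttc
Ifit1: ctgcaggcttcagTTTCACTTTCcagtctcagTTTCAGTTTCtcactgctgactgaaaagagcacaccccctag
Rsad2: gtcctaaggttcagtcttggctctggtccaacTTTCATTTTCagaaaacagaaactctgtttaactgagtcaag
Oas3: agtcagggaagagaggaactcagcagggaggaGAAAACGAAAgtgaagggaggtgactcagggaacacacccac
Cxcl10: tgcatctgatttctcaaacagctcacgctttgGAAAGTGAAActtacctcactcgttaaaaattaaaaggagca
The central match begins 66, 85, 120, 75 and 213 bases before the start of Isg15, Ifit1, Rsad2, Oas3 and Cxcl10.

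Irf7, the transcription factor that amplifies the interferon response (chr7:141262706-141266481), measured 111, 107, 105, 98.5 and 114 CPM with GW3965 and 1089, 1066, 1098, 998 and 1021 CPM with GSK2033, and Vehicle lay from 1109 to 1203 (median 1185). The agonist libraries stood far below all others. The antagonist libraries lay slightly below Vehicle, unlike most of the list. The difference was -3.3 (SE 0.05, adjusted p = 5.3e-42), with -3.45 for GW3965 and -0.15 for GSK2033 against Vehicle.

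Ifit1, which binds foreign RNA, stood at 11.4, 10.04, 9.697, 10.9 and 10.7 CPM with GW3965 and 234, 225, 226, 214 and 213 CPM with GSK2033, with Vehicle from 117 to 137 (median 124). Here the antagonist lay above Vehicle as well, by 0.83 (SE 0.06, adjusted p = 1.3e-16), and the whole difference was -4.4 (SE 0.07, adjusted p = 1.0e-39). Isg15, a ubiquitin-like modifier, ran from 10.5 to 15.1 CPM with GW3965 and from 248 to 268 with GSK2033 (-4.37, SE 0.07). Rsad2 (viperin) differed by -3.6 (SE 0.06), and against Vehicle by -2.56 and 1.04. Oas3, a sensor of double-stranded RNA, differed by -2.44 (SE 0.04), of which 0.20 was the antagonist's share.

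The guanylate-binding and Schlafen genes, also interferon-induced, were lower in 14 of 14 cases (median -2.71). Gbp6, Gbp3 and Gbp2 differed by -4.61 (SE 0.09), -3.78 (SE 0.11) and -2.91 (SE 0.07). Slfn1 nearly vanished with the agonist, at 0.0529, 0.0848, 0.154, 0.0713 and 0.188 CPM (12 counts over 5 libraries), against 21.2, 19.8, 20.9, 19.5 and 19.1 CPM with GSK2033 and from 9.51 to 11.02 (median 10.6) with Vehicle. Its fitted difference was -7.47 (SE 0.16, adjusted p = 1.8e-36). The counts of Slfn1 stood unchanged under 2 further identifiers in all 46 libraries, so its level may be part of a larger total. Reads that these families share between near-identical copies may be split by the authors' quantification, so values of single copies are uncertain, as they are for Ifit3b, Ifi205 and Ifi206 (-5.4, -5.27 and -5.17), which were among the 12 lowest genes, and for H2-Q and Ms4a4 genes below.

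Inflammatory cytokines and targets of NF-kB, the transcription factor of the acute response, were lower with GW3965 in 23 of 24 cases and higher in 0 (median -2.62). The list's medians against Vehicle were -1.63 with the agonist and 0.86 with the antagonist. The member not called was Il1a (0.10, adjusted p = 0.72).

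Il1b, a fever-inducing cytokine, measured 4.34, 4.62, 6.67, 3.602 and 5.93 CPM with GW3965, 112, 128, 95.8, 109 and 87.4 CPM with GSK2033 and from 139 to 205 (median 153) CPM with Vehicle. Its highest level was with Vehicle, and the antagonist libraries lay between. The difference was -4.42 (SE 0.21, adjusted p = 1.3e-21), and against Vehicle -5.06 (adjusted p = 9.8e-24) and -0.64 (adjusted p = 6.0e-04).

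Ccl4, a chemokine that draws monocytes and T cells, stood at 17.98, 16.7, 19.5, 17.7 and 17.6 CPM with GW3965 and 98.7, 102, 109, 89.95 and 103 CPM with GSK2033, with Vehicle from 25.9 to 31 (median 28.9). Vehicle lay nearer to the agonist: -0.67 with GW3965 (adjusted p = 9.9e-14) and 1.82 with GSK2033 (adjusted p = 3.5e-30), and the midpoint was above Vehicle by 0.57 (adjusted p = 4.3e-14). Ccl3 had the same order (-0.73 and 1.72). Ccl5 lay the other way, with more of its difference on the agonist's side (-2.79 and 0.67). Cxcl10, the interferon-induced chemokine whose promoter is printed above, was nearly even at -2.89 and 2.36, with 1.31 to 2.22 CPM with GW3965, 54.02 to 66.7 with GSK2033 and a difference of -5.26 (SE 0.18, adjusted p = 4.8e-28). Lcn2, which binds bacterial siderophores, differed by -5.51 (SE 0.25).

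Toll-like receptors and their adaptors were lower in 12 of 18 cases, higher in 5 and not called in 1, beside 22.6% lower and 23.8% higher over all genes tested. Cd14, the co-receptor for lipopolysaccharide, was at 264 to 279 CPM with GW3965 and 1017 to 1156 with GSK2033 (-2.03, SE 0.04, adjusted p = 3.4e-36). Tlr1 and Tlr2, which sense bacterial lipopeptides, were -2.04 (SE 0.05) and -1.75 (SE 0.05). Irak3, an inhibitor of this pathway, was lower too (-2.23, SE 0.07). Tlr4, the lipopolysaccharide receptor, was among the 5 that were higher (0.29, SE 0.05, adjusted p = 9.8e-07).

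Antigen presentation by MHC class I was lower with the agonist in 19 of 20 genes, with a median of -1.45. H2-K1, a classical class I heavy chain, measured 1617, 1577, 1576, 1456 and 1573 CPM with GW3965 and 4397, 4211, 4368, 4014 and 4367 CPM with GSK2033, and Vehicle from 3269 to 3539 (median 3425). Vehicle lay between the groups and nearer to the antagonist, with -1.13 and 0.32, and the difference was -1.45 (SE 0.03, adjusted p = 2.3e-35). B2m, the light chain all these molecules share, was at -1.01 (SE 0.03). H2-Q7, H2-Q6 and H2-Q4 were at -4.34, -4.24 and -2.84, and H2-T23 at -2.14. The gene that was higher was Calr (0.21, SE 0.02), a chaperone of the endoplasmic reticulum that also helps load class I.

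MHC class II and co-stimulation genes were lower in 12 of 14 cases and higher in 0 (median -0.89). H2-Ab1, a class II chain, was at -1.13 (SE 0.05), Cd86, a ligand of CD28, at -1.84 (SE 0.08), Cd40 at -1.93 (SE 0.09) and Icosl at -2.07 (SE 0.10). Genes that restrain T cells did not share a direction: 4 were higher, 7 lower and 3 not called, beside 23.8% higher and 22.6% lower over all genes tested. Siglec1, a sialic acid receptor that interferon induces, was lower by the largest amount (-3.32, SE 0.07), with Ptges, a prostaglandin E synthase (-2.89, SE 0.12), Lgals9 (-1.34, SE 0.03) and Pirb (-1.01, SE 0.03) also lower.

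**Figure D3:**
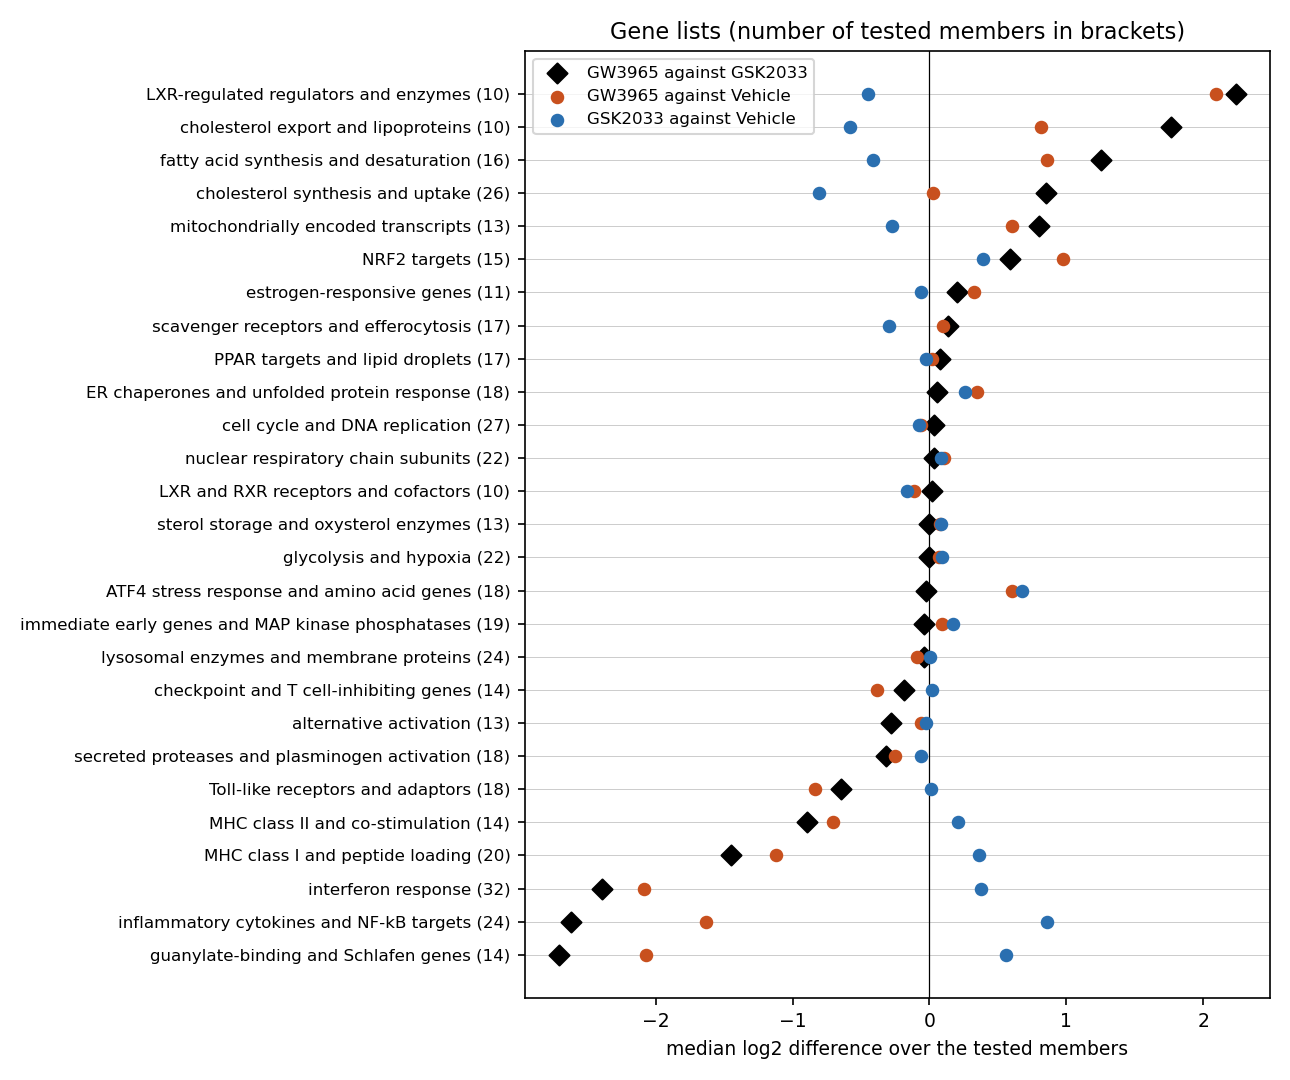
Median log2 difference over the tested members of 27 gene lists, for GW3965 against GSK2033 (diamonds), GW3965 against Vehicle (orange) and GSK2033 against Vehicle (blue). Lists run from guanylate-binding and Schlafen genes at the bottom to LXR-regulated regulators and enzymes at the top. Both compounds lie right of 0 for NRF2 targets, ATF4 genes and ER chaperones. By smaller amounts they also do for sterol storage, immediate early, glycolysis and nuclear respiratory chain genes.

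The lowest genes included several outside these lists. Ms4a4c, a membrane protein of haematopoietic cells (chr19:11404770-11427246), stood at 1.38, 0.466, 0.564, 1.25 and 1.04 CPM with GW3965 and 175, 169.6, 161, 143 and 159.5 CPM with GSK2033, with Vehicle from 63.2 to 72.3 (median 67.5). The groups were far apart, and the difference was -7.41 (SE 0.18, adjusted p = 6.3e-33). Slc13a3, a carrier of dicarboxylates such as itaconate, was at 4.71, 6.14, 4.98, 4.14 and 5.699 CPM with GW3965 and 231, 224, 232, 216 and 208 CPM with GSK2033 (-5.44, SE 0.09, adjusted p = 1.4e-39). Hcar2, the niacin receptor, was at a mean of 0.208 CPM with GW3965 and 11.6 with GSK2033 (-5.77, SE 0.19), and Vehicle lay at 2.57. Mcemp1 and Vnn3 were close to 0 with the agonist, with 1 and 4 counts in all 5 libraries together, against 307 and 383 with the antagonist.

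Most macrophage markers were lower with the agonist than with the antagonist. Adgre1, which encodes the marker F4/80, measured 1612, 1663, 1648, 1710.2 and 1809.5 CPM with GW3965 and 4447, 4296, 4196, 4518 and 4243 CPM with GSK2033, with Vehicle from 4170.3 to 4546 (median 4340.1). Antagonist and Vehicle overlapped and the agonist lay below both, a difference of -1.36 (SE 0.03, adjusted p = 8.5e-35). Fcgr1, the high-affinity IgG receptor, was lower (-1.33, SE 0.04), and so was Cybb, the catalytic subunit of the phagocyte oxidase (-1.26, SE 0.03). Over the 14 macrophage markers, 2 were higher, 9 lower and 3 not called. Against Vehicle, 11 of them were lower and 3 higher with GW3965, and 11 lower and 1 higher with GSK2033. Over all genes tested, 21.1% were lower than Vehicle with GW3965 and 17.9% with GSK2033. The markers summed to 12822 to 13431 CPM with GW3965, 18174 to 19314 with GSK2033 and 22850 to 24812 with Vehicle. Of 12 neutrophil markers only Csf3r and S100a8 passed the filter on low counts, and both were lower. S100a8 was low throughout, at 0.571 to 1.005 CPM with GW3965 and 1.21 to 1.74 with GSK2033. Markers of osteoclasts gave 4 of 6 tested lower and 1 higher, beside 22.6% and 23.8% of all genes tested.

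Scavenger receptors and genes for the uptake of dying cells were higher in 9 of 17 cases, lower in 3 and not called in 5. The shares over all genes tested were 23.8% higher and 22.6% lower. Cd36, which takes up oxidised LDL and fatty acids, measured 3777, 3876, 3670.3, 3842 and 3639.5 CPM with GW3965 and 994, 972, 997, 942 and 964 CPM with GSK2033, with Vehicle from 1259.5 to 1448 (median 1375). Vehicle lay between, nearer to the antagonist, and the difference was 1.95 (SE 0.03, adjusted p = 5.6e-43). Scarb1, the HDL receptor, and Mertk, a receptor for dying cells and a known LXR target, were also higher (1.42, SE 0.05, and 1.36, SE 0.05). Scarb2, a lysosomal membrane protein, was at 0.53 (SE 0.02).

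Alternative activation was split evenly, with 5 higher, 5 lower and 3 not called of 13. Trem2, a lipid-sensing receptor whose counts are repeated under 1 further identifier, was higher (0.99, SE 0.04), as was Pparg (0.77, SE 0.06), whereas Il4ra, a chain of the IL-4 receptor (-0.60, SE 0.03), and Socs3, a brake on cytokine signals (-1.73, SE 0.10), were lower. PPAR targets and lipid droplet genes gave 9 higher and 7 lower of 17, beside 23.8% and 22.6% of all genes tested. Among them Plin2, which coats lipid droplets, was 0.53 (SE 0.03), and Ucp2, a mitochondrial carrier, 0.58 (SE 0.03).

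Secreted proteases and genes of plasminogen activation were lower in 11 of 18 cases and higher in 4, beside 22.6% and 23.8% of all genes tested. Plau, the urokinase that activates plasminogen, was higher with the agonist (1.78, SE 0.05, adjusted p = 1.9e-32), Mmp12, the macrophage elastase, was 0.76 (SE 0.04), and Tgm2, a crosslinking enzyme, 0.85 (SE 0.03). Mmp14, a membrane-bound protease, was lower (-1.51, SE 0.05). In Tgm2 the difference lay on the antagonist's side: -0.91 with GSK2033 against Vehicle (adjusted p = 4.6e-28) and -0.06 with GW3965 (adjusted p = 0.11).

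Among the stress responses both compounds often lay above Vehicle. Other lists had both medians above Vehicle too, by smaller amounts. The midpoint lay above Vehicle in 11 of 22 nuclear-encoded respiratory chain subunits and below it in 0. It was above in 8 and below in 3 of 13 genes of sterol storage. Glycolysis and hypoxia genes gave 10 above and 5 below of 22, and immediate early genes 9 and 4 of 19. NRF2 is the transcription factor of the response to oxidants, and its list held 15 tested genes, including Nfe2l2, which encodes it. Of these, 10 were higher with GW3965 than with GSK2033 and 4 lower (median 0.59), beside 23.8% and 22.6% of all genes tested. The midpoint lay above Vehicle in 13 and below it in 1, against 19% and 19.9% of all genes tested. Hmox1, which degrades haem, measured 1980.5, 1885, 1886, 1822 and 1891 CPM with GW3965, 903, 915, 920.1, 894 and 921 CPM with GSK2033 and from 639.8 to 716 (median 668) CPM with Vehicle. Every agonist library was above every antagonist library, and these above Vehicle, with 1.49 and 0.43 against Vehicle (adjusted p = 1.8e-40 and 9.2e-20). Cat, Txnrd1 and Gclm, which handle peroxide and make glutathione, had the same order (1.3 and 0.24, 1.22 and 0.24, 1.27 and 0.37 against Vehicle).

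The 4 members of the NRF2 list that were lower with GW3965 were Fth1, Nfe2l2, Prdx1 and Slc7a11, the cystine carrier. Fth1 had medians of 18600 CPM with GW3965, 25000 with Vehicle and 32640 with GSK2033. Slc7a11 stood at 20.9, 20.9, 21.9, 19.9 and 22.6 CPM with GW3965 and 128, 119, 113, 124 and 111 CPM with GSK2033, with Vehicle from 31.6 to 45.3 (median 39.2). The agonist lay below Vehicle and the antagonist above it, and the difference was -2.49 (SE 0.09, adjusted p = 2.2e-27). It is also an ATF4 target.

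ATF4 drives the response to lack of amino acids and to unfolded protein. The 18 tested genes of its list, Atf4 itself among them, split between the compounds (7 higher, 8 lower, 3 not called, median -0.03). Yet the midpoint was above Vehicle in 17 of them and below it in 0, against 19% and 19.9% of all genes tested. Medians against Vehicle were 0.60 with GW3965 and 0.68 with GSK2033. Trib3, a pseudokinase of this response, measured 18.7, 19.96, 19.5, 19.6 and 19.97 CPM with GW3965, 35.6, 37.6, 39.7, 37.4 and 42.3 CPM with GSK2033 and from 9.31 to 12.2 (median 10.7) CPM with Vehicle. The 3 groups were separate, with the antagonist highest and Vehicle lowest, and both compounds were called against Vehicle (0.86, adjusted p = 2.1e-18, and 1.84, adjusted p = 1.9e-30). Mthfd2, a mitochondrial enzyme of folate metabolism, was 1.11 and 0.96 against Vehicle and differed by 0.15 (SE 0.03) between the compounds. Atf3 was higher with the agonist (1.36, SE 0.05) and Ddit3, which encodes CHOP, lower (-1.63, SE 0.05), as was Slc3a2, the partner chain of Slc7a11 (-0.89, SE 0.03).

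Chaperones of the endoplasmic reticulum gave 7 higher, 4 lower and 7 not called between the compounds, with small differences (median 0.05). Over all genes tested, 23.8% were higher and 22.6% lower. The midpoint was above Vehicle in 18 of 18, against 19% of all genes tested. Sdf2l1 was 0.40 (SE 0.04) and Herpud1 -0.58 (SE 0.04).

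Gdf15, a secreted stress hormone (chr8:70629393-70632456), stood at 25.8, 25.3, 23.1, 24.6 and 24.9 CPM with GW3965 and 44.7, 48.1, 51.8, 42.6 and 51.7 CPM with GSK2033, with Vehicle from 11.7 to 13.5 (median 12.4). No group overlapped another, and both compounds lay above Vehicle, by 0.99 (adjusted p = 4.1e-22) and 1.94 (adjusted p = 1.0e-32). Hspa1a, an inducible heat shock protein, was also above Vehicle with both (1.19 and 1.2, adjusted p = 5.3e-11 and 8.5e-11), and the compounds were not told apart, with a 95% interval of -0.26 to 0.24. Mt2, a metal-binding protein, was 1.57 and 1.03, Procr, the receptor of protein C, 1.03 and 0.94, and Gsta3, a glutathione transferase, 1.31 and 0.93, each called against Vehicle with both compounds.

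On the other side of Vehicle stood F13a1, Pecam1, Adgre4, Cytip and Pde3b. F13a1, a crosslinking coagulation factor made by macrophages, measured 4.66 to 5.77 CPM with GW3965, 6.39 to 7.55 with GSK2033 and 17.02 to 20.97 with Vehicle, so that both compounds lay below every Vehicle library (-1.91 and -1.5). Adgre4, a relative of F4/80, was at 0.899, 0.381, 0.7696, 1.18 and 0.848 CPM with GW3965, 8.52, 10.6, 8.64, 10.4 and 9.75 CPM with GSK2033 and from 21.1 to 26.2 (median 24.2) CPM with Vehicle. It was below Vehicle with both compounds (-4.85, adjusted p = 9.0e-28, and -1.32, adjusted p = 1.8e-12) and lower with the agonist (-3.53, SE 0.18). Pecam1, an adhesion molecule listed here with stromal and endothelial markers, was -3.33 and -1.36. Cytip, an adhesion regulator, was lower with the antagonist than with the agonist (-1.13 and -1.89), and Pde3b, a phosphodiesterase, was -1.64 and -0.99. Each of these was called with both compounds against the same Vehicle libraries, which the comparisons share.

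**Figure D4:**
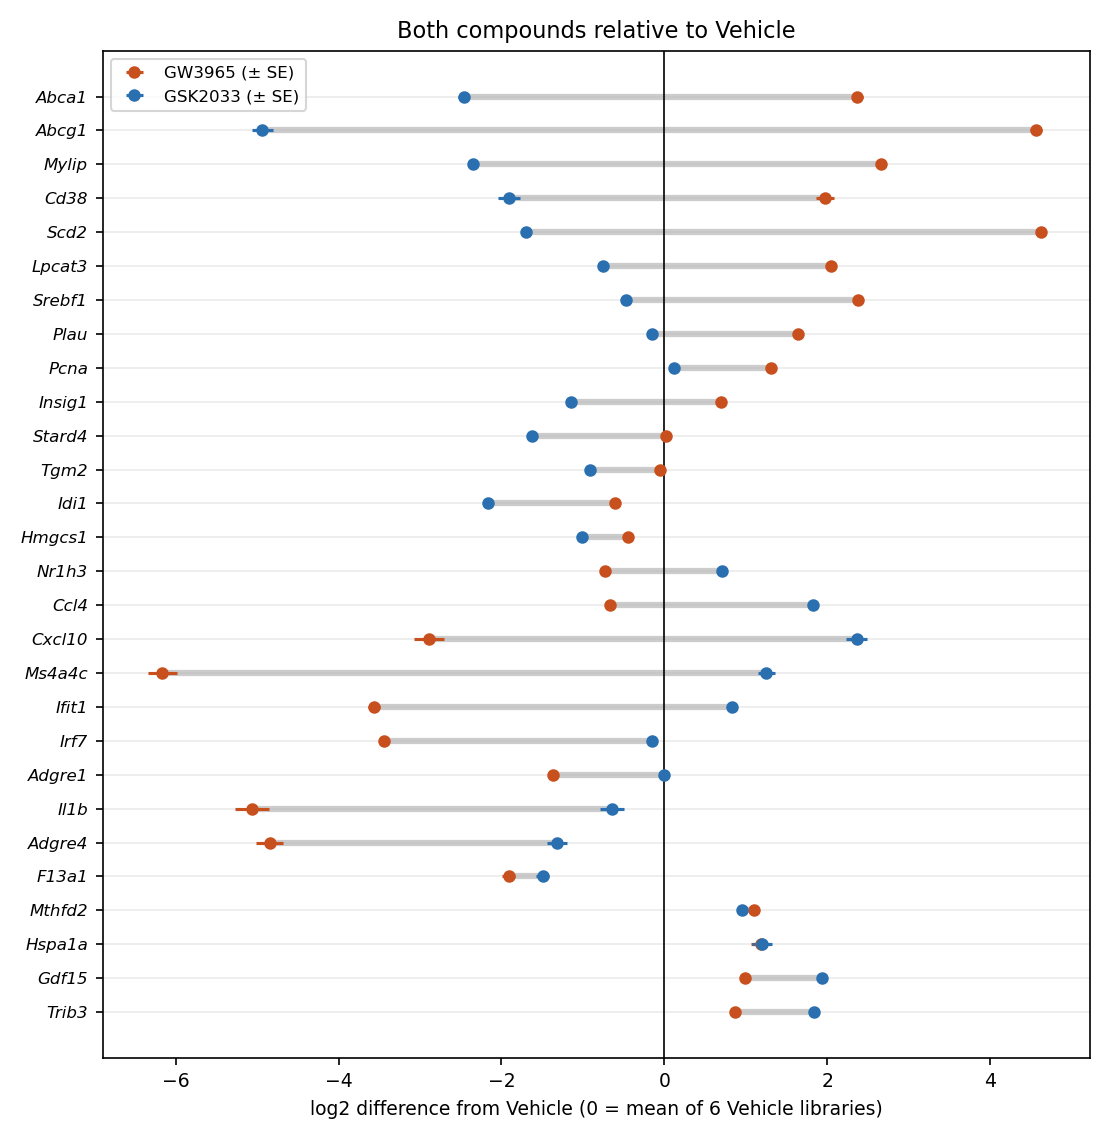
Log2 difference from Vehicle (x axis, 0 is the fitted mean of 6 Vehicle libraries) with GW3965 (orange) and GSK2033 (blue) for 28 genes, points with SE, joined by a grey bar. Bars centred on 0 (Abca1, Abcg1) have Vehicle midway, bars that end at 0 (Stard4, Adgre1) have Vehicle at 1 compound, and bars clear of 0 (Idi1, F13a1, Gdf15) have both compounds on 1 side.

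Genes of energy metabolism and growth had no common direction. Glycolysis and hypoxia genes gave 7 higher, 9 lower and 6 not called of 22. Hif1a, the hypoxia-inducible factor, and Pfkfb3, which sets the pace of glycolysis, were lower with the agonist (-1.14, SE 0.04, and -1.18, SE 0.04), while Pfkp was higher (0.41, SE 0.04). Of 27 cell cycle genes 9 were higher, 5 lower and 13 not called, beside 23.8% higher and 22.6% lower over all genes tested, so the list as a whole lay near the background. Pcna, the clamp of DNA polymerase, was at 393 to 415 CPM with GW3965 and 155 to 185 with GSK2033 (1.2, SE 0.04, adjusted p = 1.7e-28), and Mcm6, a helicase subunit, at 0.63 (SE 0.04). Cdkn1a, a brake on the cycle, was at -0.44 (SE 0.03). Immediate early genes gave 6 higher and 8 lower of 19, with Myc at 0.88 (SE 0.05), Ier3 at -0.99 (SE 0.06) and Klf6 at -0.33 (SE 0.02).

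Lysosomal genes were divided, with 10 higher, 11 lower and 3 not called. The proteases Ctsb (0.38, SE 0.02) and Ctsz (-0.68, SE 0.03) went in opposite directions, and the glycosidases Man2b1 (0.56, SE 0.02) and Hexa (0.35, SE 0.02) were higher. Nuclear-encoded subunits of the respiratory chain gave 8 higher, 5 lower and 9 not called of 22, with a median of 0.03, beside 23.8% higher and 22.6% lower over all genes tested. With library size as the scaling, 6 were higher and 7 lower.

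Transcripts encoded by the mitochondrial genome were higher with GW3965 in 11 of 13 cases and lower in 0 (median 0.80), beside 23.8% and 22.6% of all genes tested. mt-Cytb, a subunit of complex III, was at 1.02 (SE 0.07) and mt-Nd1, a subunit of complex I, at 0.91 (SE 0.07). As a share of all counts, mitochondrially encoded genes took 2.17% ± 0.118 (SD, n = 5) with GW3965, 1.37% ± 0.0963 (SD, n = 5) with GSK2033 and 1.60% ± 0.103 (SD, n = 6) with Vehicle. The agonist exceeded the antagonist by 0.798 percentage points (two-sided exact permutation test, p = 0.0079, the smallest p that 5 against 5 libraries allow). This share is also read as a sign of RNA quality, and its part in the other results was not tested.

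Of 11 tested estrogen-responsive genes, which other arms of the experiment address, 8 were higher with GW3965, 2 lower and 1 not called. Over all genes tested, 23.8% were higher and 22.6% lower. Esr1, the estrogen receptor α, was low in all groups and lower with the agonist, with 2.402 to 2.64 CPM with GW3965, 5.37 to 8.14 with GSK2033 and 5.77 to 6.63 with Vehicle (-1.36, SE 0.11, adjusted p = 5.6e-14). Igf1, a growth factor that macrophages secrete, was higher (1.32, SE 0.03), as was Rara, the retinoic acid receptor α (0.80, SE 0.05), and Cxcl12, a chemokine also on the stromal list, was lower (-0.88, SE 0.04).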

How the data were processed

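Polyadenylated RNA of 46 libraries of mouse bone marrow-derived macrophages was sequenced as stranded single reads of 100 nt, per the labels' protocols. The deposited values are estimated counts per gene, which the authors made with kallisto 0.44.0 on GRCm38, per the submitters' processing notes. How transcripts were summed to genes is not given in the sources used here, and reads shared by near-identical genes may be split between them. The table held 24671 genes by Ensembl identifier, and GENCODE M21 gave symbols and GRCm38 positions for 24279. Of the 13838 tested, 166 (1.2%) repeated the counts of another identifier in all 46 libraries, and 90 of these are among the genes called between the compounds. Rounding the estimated counts moved a library's total by at most 133.

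Genes were kept with filterByExpr (13838), scaled by TMM and modelled with edgeR 4.0.16 (quasi-likelihood, robust) over the 46 libraries, each group having 1 mean (37 residual degrees of freedom). GW3965 against GSK2033, each against Vehicle, and the midpoint of both against Vehicle were contrasts in that model, and p-values were adjusted by Benjamini-Hochberg across the 13838 genes. The biological coefficient of variation was 7.55%. For 5 libraries of the fit, GW3965 with another compound, the labels disagree on that compound, and these libraries enter no comparison. No pair of libraries was identical, and the chi-square per degree of freedom between replicates was 4.82 to 10.3 with GW3965 and 4.99 to 7.86 with GSK2033, where counting error alone gives about 1. The fit was tested on simulated data with known changes, in which a gene's spread was set by its level, not by its own spread. That run therefore does not measure how often genes of the real data are falsely called. Promoter windows from RefSeq (GRCm38.p6, 250 bases before to 50 after a start) matched 10279 of 13826 symbols tested.

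Lists, the gene-naming rule and the libraries compared were chosen with earlier results of these data known, and some genes belong to several lists. The rule took the 12 highest and 12 lowest called genes without overlap and with CPM averaging 1 or more, from each list the 4 members of smallest p, 12 genes named in advance, 6 genes each with both compounds called above or below Vehicle, 4 each with the largest midpoint contrast on either side (both at a mean CPM of at least 5) and the 6 most abundant called genes at least 2-fold apart. Some genes that the rule names are not reported here. Apoe, Calr, Csf1r, Fasn, Fth1, Il1a, Isg15, Lyz2, Npc1, Npc2 and Tlr4 were added after their values were seen. Alternatives tried were RLE size factors, library size alone, no filter on low counts, a mean CPM of at least 5, fits to fewer libraries, a fit without mitochondrially encoded genes, a replicate block, limma-voom, DESeq2 1.42.0 and leaving out each replicate.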

Additional observations from a re-analysis of the deposited data

Results flagged for a closer look

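In 21 of 426 groups of 5 or 6 libraries tested (4.93%), 1 library of a named gene stood apart from the rest of its group by Dixon's test at 95%, and chance flags about 1 in 20 groups. With GW3965, the library that stood apart was the highest for Apoe (library 1, 9267 CPM, next 8169), Lpl (library 1, 7981 CPM, next 7620.4), Nr1h3 (library 5, 51.1 CPM, next 42.5) and Mcemp1 (library 4, 0.0357 CPM, the others at 0). It was the lowest for Ctsb (library 3, 13068 CPM, next 13469), Gsta3 (library 4, 11.6 CPM, next 13.7), H2-K1 (library 4, 1456 CPM, next 1573), Npc1 (library 2, 315 CPM, next 333) and Rxra (library 1, 122 CPM, next 129).

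With GSK2033, B2m (library 4, 5371 CPM, next 5631), Cytip (library 3, 8.36 CPM, next 11.0), Lipa (library 2, 1555 CPM, next 1616) and Mid1ip1 (library 4, 13.9 CPM, next 17.2) had a lowest library apart, and Plin2 (library 3, 742 CPM, next 691) a highest. With Vehicle, the highest library stood apart for Gbp3 (library 1, 34.6 CPM, next 29.8), Hexa (library 4, 1058 CPM, next 1028), Mmp12 (library 6, 205 CPM, next 175), Pecam1 (library 1, 17.0 CPM, next 14.2), Scarb2 (library 5, 304 CPM, next 286), Tlr1 (library 6, 81.6 CPM, next 76.3) and Vnn3 (library 1, 3.47 CPM, next 2.71). None of these libraries bridged the gap between GW3965 and GSK2033 for a gene whose groups are described as separate.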

How the results depend on the processing

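Of 560 results for 140 named genes in the 4 contrasts, 540 kept their side of the threshold under all alternatives run. A called result changed sign in 0 cases. In 53 cases an alternative gave the opposite sign for a result called in neither fit. Between the compounds, Nr1h2 and Rxrb were the named genes that lost a call, each in the settings listed beside it in the results. With genes of a mean CPM of at least 5, where 10146 genes were tested, 169 genes were at least 2-fold higher with GW3965 and 379 at least 2-fold lower. With library size as the scaling, 2933 genes were called higher and 3490 lower, the respiratory chain subunits turned from 8 higher and 5 lower to 6 and 7, lysosomal genes went from 10 and 11 to 9 and 13, and 1 mast cell and basophil marker was called lower instead of 0. Leaving out 1 library at a time gave 3007 to 3182 genes called higher, 2984 to 3212 lower, 317 to 349 at least 2-fold higher and 664 to 678 at least 2-fold lower. DESeq2 gave 3214 higher and 3231 lower, and limma-voom 3277 and 3127. Over all genes, no pairing by replicate number was seen: deviations of same-numbered libraries correlated at -0.072 to 0.059, and 0 of 5 GW3965 libraries correlated best with the GSK2033 library of their own number. Such correlations cannot show whether the libraries were paired by design, or paired weakly or in few genes. With the replicate block, 3022 genes were called higher and 2969 lower, against 3075 and 3044 for the same 10 libraries without it. With both groups at 1 CPM or less, differences rest on few counts, and their SE is given for those named.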
